A study of Mus musculus with 7 samples.

Results

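The IFIT family (interferon-induced proteins with tetratricopeptide repeats) was examined in bulk RNA sequencing of mouse microglia. Its members were taken by gene symbol as Ifit1, Ifit1bl1, Ifit2, Ifit3 and Ifit3b, which are 5 of the 55401 genes in the deposited count table. All 5 passed the filter on low counts, so every member was tested. The libraries came from C57BL/6 mice aged 6 to 8 weeks, which the series title describes as adult males. In all mice AAV-RAM-Cre was injected into the dorsal dentate gyrus, where the activity-dependent RAM promoter directs Cre to recently active neurons. In the control group, EYFP 1 to 4, it was given with the Cre-dependent AAV-Dio-EYFP, and in the other group, ATG7 1 to 3, with AAV-Dio-Atg7-Flag. Atg7 is a gene required for autophagy, so the comparison asked how microglial RNA differs when engram neurons, and not the microglia, are made to overexpress it. Both groups received virus, and no group went without. The labels do not say whether a library is 1 mouse or a pool. The p-values therefore measure the spread between these libraries.

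IFIT genes are silent or low in resting cells and are switched on by type I and type III interferons, through a complex of STAT proteins with Irf9 that binds the interferon-stimulated response element (ISRE) in their promoters. Their proteins are built of tetratricopeptide repeats and have no known enzymatic activity. Ifit1 binds RNA whose cap lacks ribose methylation and keeps it from being translated, while Ifit2 and Ifit3 bind to other family members and to RNA. In the brain, Ifit2 is known for restricting neurotropic viruses in mice.

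The 5 members lie together on chromosome 19 within 99.3 kb (GRCm38, GENCODE M21 annotation). Ifit2 (ENSMUSG00000045932) spans 34550694 to 34576419, Ifit3 (ENSMUSG00000074896) spans 34583531 to 34588731, and Ifit3b (ENSMUSG00000062488) spans 34607970 to 34613401, all on the plus strand. Ifit1 (ENSMUSG00000034459) spans 34640871 to 34650009 on the plus strand, and Ifit1bl1 (ENSMUSG00000079339) spans 34592891 to 34601956 on the minus strand. In the longest annotated transcripts the coding sequence holds 463 codons in Ifit1, 470 in Ifit1bl1 and in Ifit2, and 403 in Ifit3 and in Ifit3b. Over the coding sequence, Ifit3 and Ifit3b match at 1198 of 1209 bases (99.1%), Ifit1 and Ifit1bl1 at 73.4%, and the other pairs of members at 49.9% to 55.4%.

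Promoter windows of RefSeq (GRCm38.p6, from 250 bases before to 50 bases after the transcript start) were found for all 5 members and were searched on both strands for the core of the ISRE, taken as GAAA repeated after any 2 bases. It occurred in windows of 4 of the 5 members, while 3.44% of all 32851 windows of that length held it. Ifit1, Ifit3 and Ifit3b each held 2 matches in 1 window, as did 0.225% of all windows. The stretches that hold the matches are shown because they are what the promoters of these members have in common. They read 5′ to 3′ on the strand of the gene, capitals mark each match, and every match in these members lies on the opposite strand, so that it reads here as the reverse complement.
Ifit1, chr19:34640760-34640838, plus strand: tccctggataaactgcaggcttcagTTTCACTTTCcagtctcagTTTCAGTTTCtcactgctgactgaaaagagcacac
Ifit3, chr19:34583348-34583441, plus strand: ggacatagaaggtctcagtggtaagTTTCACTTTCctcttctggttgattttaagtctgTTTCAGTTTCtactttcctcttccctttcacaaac
Ifit3b, chr19:34607744-34607837, plus strand: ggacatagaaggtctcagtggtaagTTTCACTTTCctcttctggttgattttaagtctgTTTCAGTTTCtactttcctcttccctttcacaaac
Ifit1bl1, chr19:34602038-34602097, minus strand: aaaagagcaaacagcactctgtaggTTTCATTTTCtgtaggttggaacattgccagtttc
The matches begin 104 and 85 bases before the start of Ifit1, 156 and 122 bases before that of Ifit3, and 188 and 154 bases before that of Ifit3b. The stretch of Ifit3b is the same as that of Ifit3 base for base, and the 2 windows match at 258 of 260 aligned bases. Ifit1bl1 has 1 match in each of its 2 windows, 104 bases before the first transcript start, as printed, and 23 bases before the second, which is not printed. Neither window of Ifit2 holds these letters. A match of letters describes the sequence and was not tested as a binding site.

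Total counts per library ranged from 35934210 to 55217119, and neither totals (exact permutation p = 0.286, two-sided) nor the number of genes detected (p = 0.857, same test) separated the groups. All 10 microglial markers, P2ry12 and Tmem119 among them, were present, with a summed level of 23780 ± 2084 CPM (counts scaled to the library size; SD, n = 4) in EYFP against 24683 ± 2737 CPM (SD, n = 3) in ATG7. Choroid plexus epithelium markers summed to more, 43087 ± 5257 CPM (SD, n = 4) and 38288 ± 5299 CPM (SD, n = 3), so the libraries hold RNA of other cells. Most of that sum was a single gene, Ttr, with means of 38924.5 CPM in EYFP and 34787.1 CPM in ATG7. The next highest, Kl, had 1613 and 1384 CPM, so the sums do not compare numbers of cells. The library labelled EYFP 3 stood apart. It had 938.0 CPM of Xist, the RNA of the inactive X chromosome, against 0.1504 to 0.573 CPM in the other 6 libraries, and 27.6 CPM of the Y-linked gene Ddx3y against 121.1 to 168.5 CPM. The Atg7 gene was measured at 35.5 ± 1.68 CPM (SD, n = 4) in EYFP against 34.9 ± 2.76 CPM (SD, n = 3) in ATG7. Endogenous and transgene reads were not separated, and this value is no check of a transgene placed in neurons.

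Each member had a higher mean in ATG7 than in EYFP, and Ifit1 passed the test. With edgeR's quasi-likelihood test and Benjamini-Hochberg adjustment over 19199 genes, 1 of the 5 members had an adjusted p under 0.05 and all 5 had an unadjusted p under 0.05. Among all genes tested, 0.688% were called higher in ATG7, 0.0677% were called lower, and 6.27% were higher with an unadjusted p under 0.05. The ATG7 libraries lay above every EYFP library for 4 of the 5 members, as they did for 6.33% of all genes tested. The median log2 fold change of the members was 1.33, with a range of 0.73 to 1.49, beside a median of -0.00365 over all genes. In these bulk samples, more cells of a type and more RNA per cell cannot be told apart.

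Ifit1, the member that recognises incompletely methylated caps, measured 15.0, 13.99, 7.07 and 11.4 CPM in EYFP 1 to 4 and 24.6, 31.6 and 33.3 CPM in ATG7 1 to 3. The lowest ATG7 library was thus above the highest EYFP library. Ifit1 rose by 1.33 ± 0.228 (SE) on the log2 scale (edgeR adjusted p = 0.0388), and its group means were 11.9 ± 3.53 CPM (SD, n = 4) against 29.9 ± 4.62 CPM (SD, n = 3). The call depended on single libraries. The adjusted p was 0.105 without EYFP 2, 0.119 without EYFP 4, 0.173 without ATG7 2 and 0.156 without ATG7 3, at log2 fold changes between 1.14 and 1.46 over all libraries left out in turn. Without EYFP 3 the log2 fold change was 1.14 (edgeR adjusted p = 0.00539).

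Ifit2, the member linked to control of neurotropic viruses, measured 48.6, 37.7, 17.6 and 38.0 CPM in EYFP 1 to 4 and 72.7, 117.8 and 106.9 CPM in ATG7 1 to 3. EYFP 3 was the lowest library and ATG7 1 the lowest of its group, and the groups did not overlap. Its means were 35.5 ± 12.9 CPM (SD, n = 4) and 99.1 ± 23.5 CPM (SD, n = 3), the highest fold of means in the family at 2.79. The log2 fold change of 1.49 ± 0.343 (SE) did not pass the test (edgeR adjusted p = 0.162). With EYFP 3 left out, the log2 fold change was 1.25, and the gene passed (edgeR adjusted p = 0.0121). It did not pass with any other library left out, where the edgeR adjusted p reached 0.433.

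Ifit3, a binding partner of other IFIT proteins, measured 46.1, 35.3, 20.1 and 33.3 CPM in EYFP 1 to 4 and 59.9, 98.8 and 97.5 CPM in ATG7 1 to 3. Ifit3b, its close copy, measured 11.002, 9.91, 4.99 and 10.2 CPM in the EYFP libraries and 16.1, 22.9 and 26.03 CPM in the ATG7 libraries. In both genes EYFP 3 was lowest, ATG7 1 was the lowest of its group, and the groups did not overlap. Ifit3 had means of 33.7 ± 10.7 CPM (SD, n = 4) and 85.4 ± 22.1 CPM (SD, n = 3), and a log2 fold change of 1.34 ± 0.293 (SE; edgeR adjusted p = 0.131). Ifit3b had means of 9.02 ± 2.73 CPM (SD, n = 4) and 21.7 ± 5.07 CPM (SD, n = 3), and a log2 fold change of 1.27 ± 0.262 (SE; edgeR adjusted p = 0.0838). Neither passed with all libraries, and both passed without EYFP 3, at log2 fold changes of 1.15 (edgeR adjusted p = 0.0411) and 1.06 (edgeR adjusted p = 0.0150). With any other library left out neither passed, and the edgeR adjusted p reached 0.404 for Ifit3 and 0.280 for Ifit3b. Of all stretches of 100 bases in its transcript, Ifit3 shares 31.7% with Ifit3b, and the handling of such shared reads is not given in the sources used here, so the division of counts between these copies is uncertain. Counted as a single gene, they gave a log2 fold change of 1.33 ± 0.290 (SE; edgeR adjusted p = 0.132).

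Ifit1bl1, a relative of Ifit1 on the opposite strand, ranked the libraries differently from the other 4. It measured 2.48, 2.07, 2.08 and 2.35 CPM in EYFP 1 to 4 and 1.798, 4.47 and 4.88 CPM in ATG7 1 to 3. ATG7 1 was the lowest of the 7 libraries, while ATG7 2 and 3 were above all EYFP libraries, so the groups overlapped. These levels rest on 72 to 246 counts per library, against 796 to 6478 for Ifit2. The difference was 0.73 ± 0.292 (SE) on the log2 scale (edgeR adjusted p = 0.345), and the exact permutation test of the CPM gave p = 0.171, two-sided. Without ATG7 1 the log2 fold change was 1.06 and the gene passed (edgeR adjusted p = 0.0420). It did not pass with any other library left out, where the edgeR adjusted p reached 0.721. EYFP 3, the lowest library for the other members, was close to EYFP 2, the lowest EYFP library for Ifit1bl1.

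**Figure D1:**
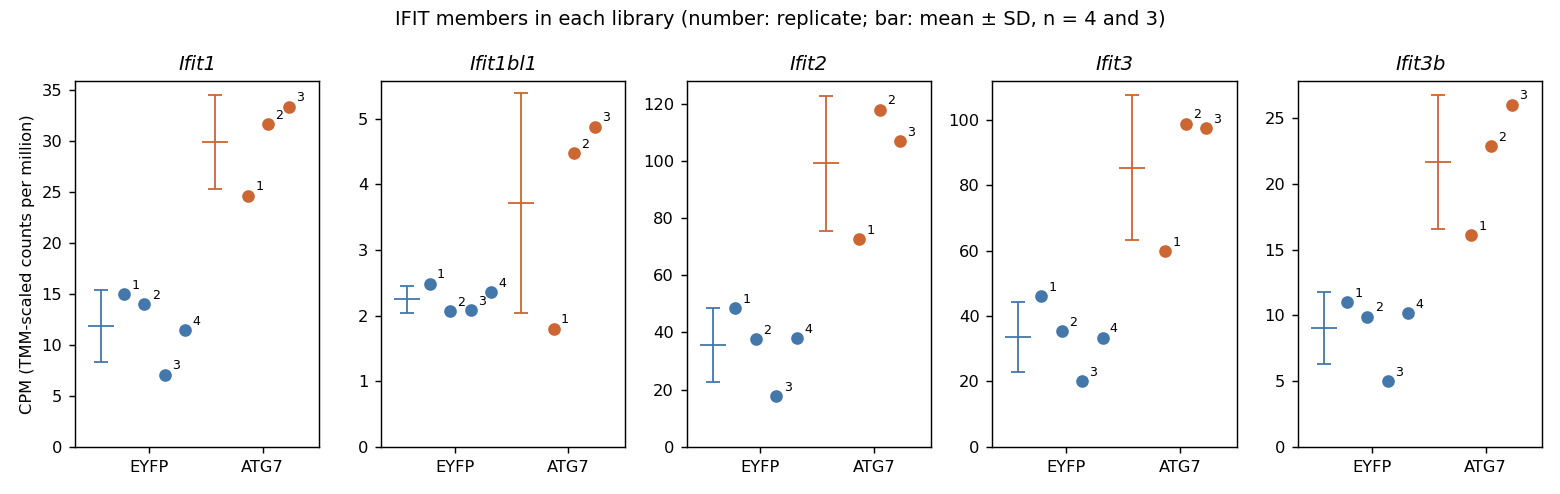
Expression of each IFIT member in CPM (linear axis from 0) in the 4 EYFP libraries (blue) and 3 ATG7 libraries (orange); the number beside each point is its replicate, and the bar to its left is the group mean ± SD. The groups separate for Ifit1, Ifit2, Ifit3 and Ifit3b, while ATG7 1 is the lowest library for Ifit1bl1 at 1.798 CPM.

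Compared per length, as CPM per kilobase of exon, the members kept a largely fixed order of levels. Ifit3 was the highest, at 19.3 ± 6.12 (SD, n = 4) in EYFP against 48.9 ± 12.7 (SD, n = 3) in ATG7. Ifit2 followed at 9.03 ± 3.29 (SD, n = 4) and 25.2 ± 5.99 (SD, n = 3), and Ifit1bl1 was the lowest at 0.995 ± 0.0907 (SD, n = 4) and 1.64 ± 0.741 (SD, n = 3). These 3 held the same rank in 7 of 7 libraries. Ifit1, at 4.47 ± 1.33 (SD, n = 4) and 11.2 ± 1.74 (SD, n = 3), and Ifit3b, at 4.51 ± 1.36 (SD, n = 4) and 10.8 ± 2.54 (SD, n = 3), exchanged ranks between libraries and did not differ beyond their spread. Of stretches of 100 bases, Ifit3b shares 27.4% with Ifit3, while Ifit1 shares 3.29% with Ifit1bl2. The handling of shared reads is not given, so the levels of Ifit3 and Ifit3b against the other members are uncertain as well. On the per-length scale Ifit3 stood at percentile 92.4 of the genes tested and Ifit1bl1 at percentile 33.3.

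The members were also compared as parts of the family. Summed over the family, the level was 123.1, 99.0, 51.9 and 95.3 CPM in EYFP 1 to 4 and 175.1, 275.6 and 268.6 CPM in ATG7 1 to 3. Ifit2 made up 37.8% ± 2.68 (SD, n = 4) of the IFIT counts in EYFP against 41.4% ± 1.496 (SD, n = 3) in ATG7. Ifit3 made up 36.7% ± 1.70 (SD, n = 4) and 35.4% ± 1.11 (SD, n = 3), and Ifit1 12.98% ± 1.07 (SD, n = 4) and 12.6% ± 1.31 (SD, n = 3). Ifit3b made up 9.81% ± 0.731 (SD, n = 4) and 9.06% ± 0.703 (SD, n = 3). Ifit1bl1 took the least, 2.65% ± 0.932 (SD, n = 4) and 1.49% ± 0.412 (SD, n = 3). No share passed an exact permutation test after adjustment over the 5 members (two-sided, p between 0.0857 and 0.743, adjusted p between 0.357 and 0.743). The sizes of the shares also rest on the handling of shared reads, which is not given.

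Ratios between members were tested in the same way for all 10 pairs. The log2 ratio of Ifit1bl1 to Ifit2 was lower in ATG7 by 0.94 (-3.89 ± 0.552 (SD, n = 4) in EYFP against -4.84 ± 0.454 (SD, n = 3) in ATG7), with an exact permutation p of 0.0286, the smallest the design allows, and an adjusted p of 0.143. No ratio passed after adjustment. Between the near-identical copies the ratio of Ifit3 to Ifit3b counts lay between 3.27 and 4.32 in every library, and its log2 mean differed by 0.06 between the groups.

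**Figure D2:**
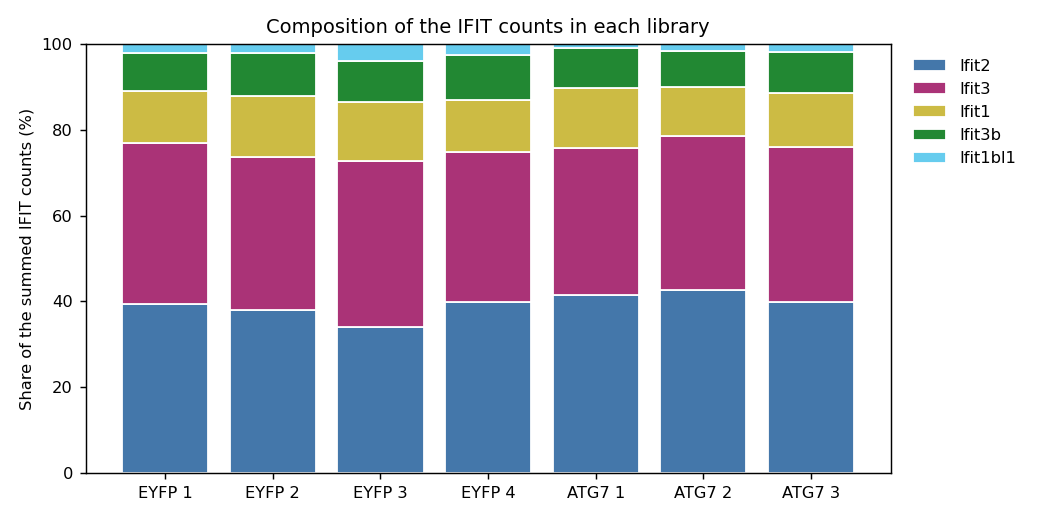
Share of the summed IFIT counts (%) taken by each of the 5 members in each library, stacked to 100%. Ifit2 and Ifit3 take most of the counts in all 7 libraries, and Ifit1bl1 the least, with a mean of 2.65% in EYFP and 1.49% in ATG7.

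Across the 7 libraries the levels of Ifit1, Ifit2, Ifit3 and Ifit3b ran in parallel. Pearson's r of their log2 CPM lay between 0.985 and 0.994 for the 6 pairs, and between 0.9498 and 0.976 after the group means were removed. Ifit1bl1 was less parallel to them, with r between 0.672 and 0.762, and between 0.449 and 0.658 after the group means were removed. These values describe 7 libraries that share the group difference, and Ifit3 and Ifit3b also share sequence.

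Genes outside the family with the most similar profile were sought among 15044 genes with a mean of at least 1 CPM, by Pearson's r with the mean standardised log2 CPM of the 5 members. Those described here, 4 of the first 5, were Ccl12 (r = 0.993), a chemokine that attracts monocytes, Phf11b (r = 0.992), Ifi208 (r = 0.991), of the interferon-inducible PYHIN family, and Ogfr (r = 0.989), a receptor for opioid growth factor. A total of 104 genes had r of at least 0.95, and 37 tied at a Spearman rho of 1, so the place among the first 5 is not separated from the genes just after it. The named genes were chosen for following the IFIT profile over these same libraries. Their shared ranking and direction of difference therefore follow from that choice. Ccl12 and Phf11b passed the test (edgeR adjusted p = 0.0431 and 0.0420), but not without EYFP 2, EYFP 4, ATG7 2 or ATG7 3 (adjusted p between 0.109 and 0.186). Ccl12 had 33.4 ± 7.28 CPM (SD, n = 4) in EYFP against 71.2 ± 13.7 CPM (SD, n = 3) in ATG7. Ifi208 had 3.13 ± 1.21 CPM (SD, n = 4) and 9.17 ± 3.60 CPM (SD, n = 3), and Ogfr had 63.1 ± 3.25 CPM (SD, n = 4) and 77.7 ± 6.43 CPM (SD, n = 3). The sizes of the difference thus varied, from a log2 fold change of 0.30 for Ogfr to 1.56 for Ifi208, beside nearly the same ranking of the libraries.

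**Figure D3:**
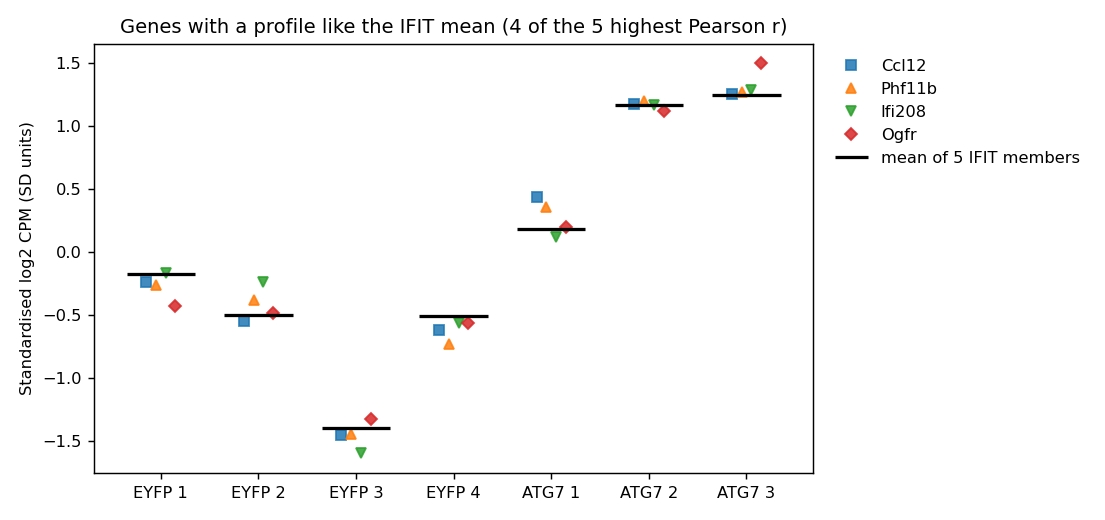
Log2 CPM of 4 of the 5 genes most similar to the IFIT members in each library, standardised to SD units per gene; black lines show the mean of the 5 IFIT members. EYFP 3 is the lowest library and ATG7 1 the lowest of the ATG7 libraries for all of them, with r between 0.989 and 0.993 over 7 libraries. The genes were chosen by this r, so the likeness follows from the choice.

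The pathway around the family was described with lists of 90 genes, of which 76 were tested. Of these, 26 passed as higher in ATG7 and none as lower (edgeR), where 0.688% of all genes passed as higher. With an unadjusted p under 0.05, 54 were higher in ATG7, beside 6.27% of all genes tested. The groups did not overlap for 46 of the 76, beside 11.2% of all genes in either direction, and the median log2 fold change was 0.61. The count of passing genes was 10 without EYFP 2, 3 without EYFP 4, 4 without ATG7 2 and 3 without ATG7 3, while it was 37 without EYFP 3. At least 47 of the list genes had an unadjusted p under 0.05 in each of those 4 fits with fewer genes. Among all genes tested, in either direction, 1903 of 18822 did without EYFP 2 and 1686 of 18985 without EYFP 4. The count over all genes without ATG7 2 or ATG7 3 is not given here.

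Upstream of the IFIT genes, the listed ligands had few or no counts. Of the 13 interferon genes on the list only Ifnb1, the main type I interferon of many cells, had enough counts to be tested. It had 14, 17, 1 and 7 counts in EYFP 1 to 4 and 15, 75 and 41 counts in ATG7 1 to 3, so the groups overlapped, and its log2 fold change of 1.90 (SE 0.630) did not pass (edgeR adjusted p = 0.251). Ifng and Ifnz, named here outside the rule, had too few counts to be tested. Ifng had 1, 0, 0 and 1 counts in EYFP and 3, 6 and 5 in ATG7. Ifnz had 0 in each EYFP library and 2, 3 and 2 in ATG7. The remaining interferon genes on the list had at most 1 count in a library, and interferon genes outside the list were not examined. The 9 receptors and receptor kinases had a median log2 fold change of 0.12. None passed with edgeR, DESeq2 or limma-voom, and 2 had an unadjusted p under 0.05 with edgeR. Jak2, the kinase with the smallest p, measured 57.6 ± 1.28 CPM (SD, n = 4) against 66.5 ± 2.42 CPM (SD, n = 3), for a log2 fold change of 0.21 (edgeR adjusted p = 0.189).

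Among 9 interferon-activated transcription factors 3 passed as higher, beside 0.688% of all genes tested, with a list median of 0.38. Stat2, a subunit of the complex that binds the ISRE, rose to 103.8 ± 8.16 CPM in ATG7 (SD, n = 3) over 54.3 ± 10.7 CPM in EYFP (SD, n = 4), or by 0.93 on the log2 scale (SE 0.131, edgeR adjusted p = 0.0137). Its adjusted p was 0.0523 without EYFP 2, 0.0574 without EYFP 4, 0.0753 without ATG7 2 and 0.0843 without ATG7 3. Irf1, which binds related sequences, rose by 0.53 on the log2 scale (edgeR adjusted p = 0.0483), a call that was lost under 10 of 14 alternatives, among them each of 6 libraries left out in turn. Irf9, named here for its role in the same complex and not by the rule, measured 75.9 ± 4.64 CPM (SD, n = 4) and 99.0 ± 9.05 CPM (SD, n = 3) and did not pass (log2 fold change 0.38, edgeR adjusted p = 0.0590).

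The sensors of viral RNA, which act before interferon is made and are themselves induced by it, had 5 of 11 passing genes. All 5 were higher in ATG7, beside 0.688% of all genes tested, and the list median was 0.51. Dhx58 rose by 1.11 on the log2 scale (SE 0.151, edgeR adjusted p = 0.0118), Ddx58, which encodes RIG-I, by 0.64, Eif2ak2, the kinase PKR that halts translation, by 0.58, and Trim25, the ubiquitin ligase that activates RIG-I, by 0.51. Without EYFP 4 or ATG7 3 none of these 4 passed, with edgeR adjusted p between 0.0509 and 0.115, Dhx58 and Ddx58 did not pass without EYFP 2 (0.0518 for both), and Dhx58 alone passed without ATG7 2. Each of the 4 kept its direction in those fits.

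The list most like the IFIT genes in function, other antiviral interferon-stimulated effectors, had 11 passing genes among the 23 tested. All 11 were higher in ATG7, where 0.688% of all genes passed as higher. All 23 were higher with an unadjusted p under 0.05, beside 6.27% of all genes tested. The groups did not overlap, with ATG7 higher, for 22, beside 6.33% of all genes tested. The median log2 fold change was 1.07. Isg15, a ubiquitin-like modifier, rose to 24.5 ± 5.65 CPM in ATG7 (SD, n = 3) over 8.58 ± 2.20 CPM in EYFP (SD, n = 4), or by 1.52 on the log2 scale (SE 0.218, edgeR adjusted p = 0.0182). Bst2, which tethers budding virions to the cell surface, rose by 0.86, Cmpk2, a mitochondrial nucleotide kinase beside the antiviral Rsad2, by 0.91, and Parp14, an ADP-ribosyltransferase, by 0.75 on the log2 scale. With edgeR, the number of passing effectors was 17 without EYFP 1, 2 without EYFP 2 and 19 without EYFP 3. It was 0 without EYFP 4, ATG7 2 or ATG7 3, where all 23 still had an unadjusted p under 0.05. Without EYFP 4, 1686 of all 18985 genes tested had such a p in either direction. With all libraries DESeq2 called 23 and limma-voom 21.

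Among 6 feedback inhibitors Usp18 alone passed, beside 0.688% of all genes tested that passed as higher, and the median was 0.22. Usp18, which removes Isg15 from proteins and damps the type I interferon receptor, rose to 39.7 ± 8.96 CPM in ATG7 (SD, n = 3) over 14.2 ± 4.199 CPM in EYFP (SD, n = 4), or by 1.49 on the log2 scale (SE 0.248, edgeR adjusted p = 0.0420). Its call was lost without EYFP 2 (adjusted p = 0.177), EYFP 4 (adjusted p = 0.119), ATG7 2 (adjusted p = 0.183) or ATG7 3 (adjusted p = 0.152), as it was for Ifit1.

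Genes preferring interferon gamma had 6 of 12 passing as higher, beside 0.688% of all genes tested, with a median of 0.67. Gbp2, a guanylate-binding protein, rose to 40.6 ± 3.12 CPM in ATG7 (SD, n = 3) over 18.4 ± 3.61 CPM in EYFP (SD, n = 4), or by 1.14 on the log2 scale (SE 0.137, edgeR adjusted p = 0.00705). Cd274, the checkpoint ligand PD-L1, rose by 0.87, Igtp, an immunity-related GTPase, by 0.62 and Gbp5 by 0.61 on the log2 scale. Gbp2 and Cd274 passed in each fit that left out a library, while Igtp and Gbp5 did not without EYFP 4, ATG7 2 or ATG7 3 (edgeR adjusted p between 0.0569 and 0.113). The enzymes of RNA cap methylation, whose product decides whether Ifit1 binds a cap, had a median of 0.01 over 5 genes. None passed with edgeR, DESeq2 or limma-voom, and 1 had an unadjusted p under 0.05 with edgeR. That gene, Cmtr1, which methylates the cap ribose, measured 4.28 ± 0.667 CPM (SD, n = 4) against 5.56 ± 0.524 CPM (SD, n = 3), for a log2 fold change of 0.38 (edgeR adjusted p = 0.381).

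**Figure D4:**
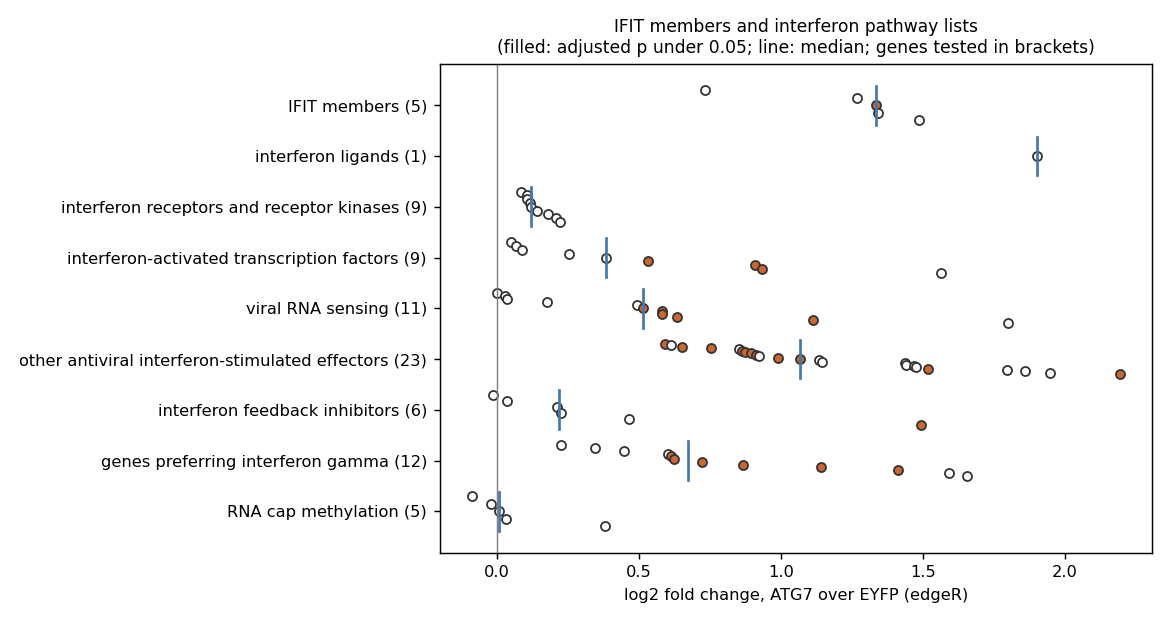
Log2 fold change (ATG7 over EYFP) of each tested gene of the IFIT family and of 8 interferon pathway lists; filled points have an adjusted p under 0.05, blue lines are medians and brackets give the genes tested. The IFIT median of 1.33 lies beside 1.07 for other effectors, 0.12 for receptors and kinases and 0.01 for cap methylation.

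The same ISRE core was counted in the promoter windows of the tested list genes that have one. It was present in 7 of 17 other effectors, 7 of 9 genes preferring interferon gamma, 3 of 8 RNA sensors, 2 of 8 transcription factors and 1 of 4 feedback inhibitors. It was not found in the windows of the 8 receptors and kinases or the 4 cap methylation genes. Of all 27025 genes with a window 3.99% held it.

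Position on the chromosome did not go with the difference throughout. Within 250 kb of the outermost members lie 16 other annotated genes, of which 7 were tested and 1 passed. Among all genes tested 0.755% passed in either direction. The neighbour that passed was Ch25h, an interferon-induced enzyme that turns cholesterol into an antiviral oxysterol, at -76.9 kb from the start of Ifit2. It measured 2.16, 1.72, 1.48 and 2.26 CPM in EYFP 1 to 4 and 5.39, 7.08 and 4.66 CPM in ATG7 1 to 3, without overlap. It rose by 1.59 ± 0.210 (SE) on the log2 scale (edgeR adjusted p = 0.00982), and the adjusted p was 0.0537 without ATG7 2. Gm26902, a noncoding RNA that starts beside Ch25h, had 6 to 29 counts per library and a log2 fold change of 0.72 (edgeR adjusted p = 0.631).

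Between the IFIT genes and their flanks the values were near 0 or lower. Lipa, the lysosomal acid lipase gene between Ch25h and Ifit2, measured 148.0 ± 4.34 CPM (SD, n = 4) against 151.5 ± 9.86 CPM (SD, n = 3), for a log2 fold change of 0.03 (edgeR adjusted p = 0.904). Ifit1bl2, a further relative of Ifit1 that lies between Ifit3b and Ifit1 on the minus strand, measured 0.846, 1.05, 0.643 and 1.18 CPM in EYFP 1 to 4 and 1.17, 0.327 and 0.946 CPM in ATG7 1 to 3. Its difference was -0.20 ± 0.405 (SE) on the log2 scale (edgeR adjusted p = 0.898). The transcript starts of Ifit1bl2 and Ifit1 are 146 bases apart on opposite strands, their promoter windows share 245 bases, and the 2 ISRE core matches printed above for Ifit1 are in both. Fas, the death receptor, had a log2 fold change of 0.09, Pank1, a pantothenate kinase, -0.16, and Slc16a12, a monocarboxylate transporter, -0.49 (edgeR adjusted p = 0.146). For Slc16a12 all ATG7 libraries lay below all EYFP libraries.

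**Figure D5:**
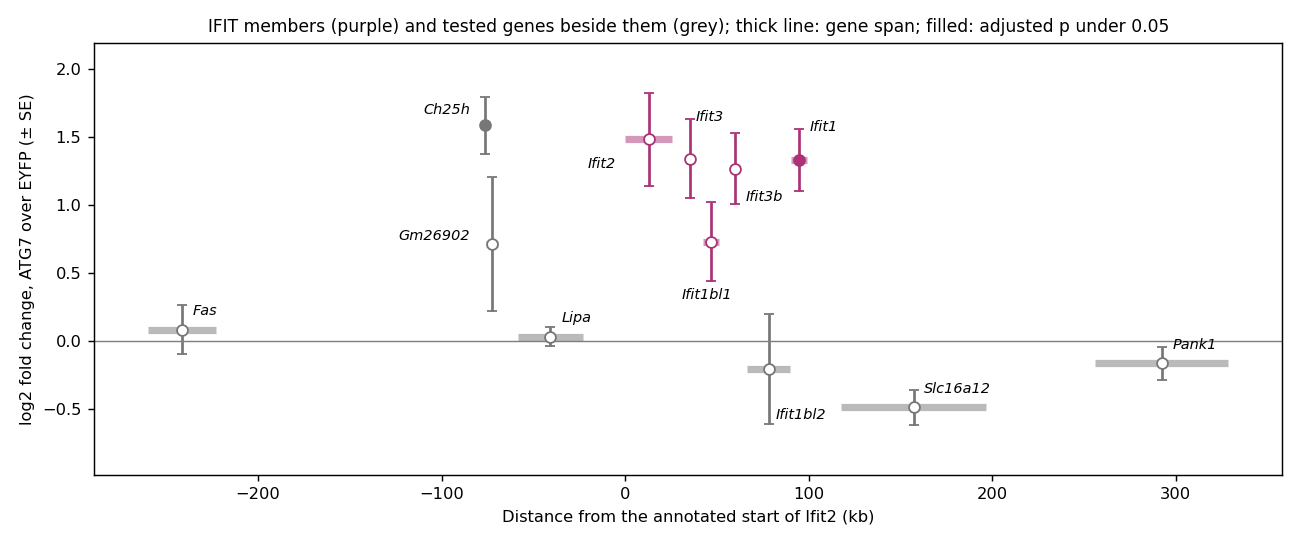
Log2 fold change (ATG7 over EYFP, bars ± SE) of the IFIT members (purple) and tested neighbours (grey) against distance from the annotated start of Ifit2 in kb; thick lines are gene spans and filled points have an adjusted p under 0.05. The IFIT members lie between 0.73 and 1.49, Ch25h at 1.59, and Ifit1bl2, inside the cluster, at -0.20.

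Markers of other cells were summed for each library beside these results. Of 10 lists, the T and NK cell list was the one whose groups did not overlap, as the IFIT members other than Ifit1bl1 did not. Its sum was 8.996 to 14.6 CPM in EYFP, with a mean of 12.1 ± 2.94 (SD, n = 4), and 16.2 to 31.2 CPM in ATG7, with a mean of 22.1 ± 8.01 (SD, n = 3). The exact permutation p was 0.0286, the smallest the design allows, or 0.286 once adjusted for the 10 lists. Of its 9 markers 8 reached 3 counts in every library, and none was at 0 in all. Cd3e, which defines T cells, measured 0.177 to 0.540 CPM in EYFP and 0.624 to 1.65 CPM in ATG7. The groups did not overlap, with ATG7 higher, for 6 of the 9 markers, beside 6.33% of all genes tested. None of the 9 passed with edgeR (adjusted p = 0.276 for Cd3e), and 6 were higher with an unadjusted p under 0.05, beside 6.27% of all genes tested. The sums of the border macrophage list were 613.7 ± 51.5 CPM (SD, n = 4) and 603.4 ± 40.6 CPM (SD, n = 3), those of the monocyte and neutrophil list 78.6 ± 14.9 CPM (SD, n = 4) and 86.3 ± 61.1 CPM (SD, n = 3), and both overlapped between the groups. Of the 9 monocyte and neutrophil markers, Plac8 measured 3.22 ± 1.19 CPM (SD, n = 4) against 8.78 ± 3.58 CPM (SD, n = 3) without overlap (edgeR adjusted p = 0.128), and Ly6c2, a marker of inflammatory monocytes, measured 2.75 ± 1.24 CPM (SD, n = 4) against 7.63 ± 5.32 CPM (SD, n = 3) with overlap (edgeR adjusted p = 0.330). These 2 had an unadjusted p under 0.05 and the other 7 did not. Log2 fold changes of the other 7 ran from -0.82 for Ly6g to 0.06 for S100a8. Plac8 and Ly6c2 were named after their values were seen. The part of these cells in the differences of the IFIT genes was not tested.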

How the data were processed

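Libraries of microglia enriched with CD11b beads were made from dorsal hippocampus, 4 from EYFP and 3 from ATG7, per the labels' protocols. The authors deposited raw counts per gene, made with fastp 0.20.1, HISAT2 2.0.5 and featureCounts on mm10 (GRCm38), per the submitters' processing notes. The annotation release and the handling of strand and of shared reads are not given in the sources used here. GENCODE M21 gave symbols to 55141 of 55401 identifiers, and coordinates describe that annotation. Columns were matched to libraries by name.

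The counts were fitted with edgeR 4.0.16 in R 4.3.3 (TMM factors, filterByExpr, robust quasi-likelihood F test, two-sided, no covariate). Adjusted p-values are Benjamini-Hochberg over 19199 genes, a gene passed under 0.05, and the SE is the absolute log2 fold change over the square root of F. CPM use TMM factors, with a prior count of 2 on the log2 scale. A floor of 3 counts is 0.0546 to 0.0819 CPM and covers counting error only. Single values were compared by exact permutation over 35 divisions of the libraries (smallest p 0.0286). Pairs of libraries of a group had chi-square values of 19.2 to 41.3 per degree of freedom, so none was counted as a duplicate. The fits were tested on simulated data first.

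The text names the members, up to 4 passing genes of each list by smallest p (or 1 where none passed), the tested neighbours, the 5 most similar genes and Atg7. Some genes that the rule selects are not reported here. The members and lists were chosen with earlier results of these data known. Alternatives were other scalings and filters, DESeq2 1.42.0, limma-voom (limma 3.58.1), a replicate block, each library left out, summed Ifit3 and Ifit3b counts, shares per length, longest transcripts, Spearman's rho and a longer motif.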

Additional observations from a re-analysis of the deposited data

Results flagged for a closer look

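Among the 4 EYFP libraries, 43 values used in the text were compared for a library far from the rest, where chance alone would give about 2.15. Ogfr, whose profile is among those most like the IFIT members, was set apart in 1 library. It measured 58.3 CPM in EYFP 3 and 64.2 to 65.2 CPM in the other EYFP libraries. EYFP 3 is also the library with the lowest level of Ifit1, Ifit2, Ifit3 and Ifit3b, but none of the members was set apart by this measure.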

How the results depend on the processing

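The log2 fold changes of the 5 members stayed above 0 under every alternative run, while calls depended on the test and the libraries. Without a filter on low counts 297 genes passed (234 higher and 63 lower), and none of the members did. Ifit1 had a log2 fold change of 1.33 (edgeR adjusted p = 0.174), although all 5 members had an unadjusted p under 0.05. In that fit 2917 of all 33007 genes had such a p in either direction. DESeq2 called 585 genes (407 higher and 178 lower), 41 pathway genes and 4 members, with Ifit2 at 1.48 (adjusted p = 0.00678), Ifit3 at 1.33 (0.00237) and Ifit3b at 1.26 (2.98e-05). Limma-voom called 40 pathway genes and 4 members, with Ifit2 at 1.59 (adjusted p = 0.0276), Ifit3 at 1.41 (0.0257) and Ifit3b at 1.36 (0.0343). Of the passing genes, 91.0% were higher in the fit of the text, 78.8% without a filter, 69.6% with DESeq2 and 75.5% without EYFP 1. With the replicate number as a block in edgeR, 0 genes, 0 pathway genes and 0 members passed, 1256, 49 and 4 of them had an unadjusted p under 0.05, and Ifit1 had 1.37 (adjusted p = 0.251). Deviations of libraries with the same number correlated at -0.0609, -0.182 and 0.0664, beside -0.145 to 0.215 for libraries with different numbers. The labels name no batch, and whether the numbers mark pairs was not tested.

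Leaving out 1 library at a time gave 28 to 277 genes, 3 to 37 pathway genes and 0 to 4 members. The 0 came without EYFP 2, EYFP 4, ATG7 2 or ATG7 3, where edgeR still gave 4 or 5 members an unadjusted p under 0.05. Of all genes tested, 1903 of 18822 had such a p without EYFP 2 and 1686 of 18985 without EYFP 4. The log2 fold change ranged from 1.14 to 1.46 for Ifit1, 1.25 to 1.67 for Ifit2, 1.15 to 1.54 for Ifit3, 1.06 to 1.44 for Ifit3b and 0.48 to 1.06 for Ifit1bl1. Log2 fold changes near 0 changed sign. Fas was at -0.0491 with the replicate block and ranged from -0.0486 without EYFP 4 to 0.159 without EYFP 3. Lipa ranged from -0.0238 without ATG7 3 to 0.0757, Atg7 from -0.0830 to 0.0351 without ATG7 1, and Ifit1bl2 from -0.55 to 0.19 without ATG7 2. The difference in the share of Ifit1 in the IFIT counts ranged from -1.03 to 0.259 percentage points without ATG7 2, and was 0.0591 without EYFP 2. The causes were not tested. Other scalings left the median over all tested genes at -0.0242 or nearer to 0 (log2) and changed no call of a member.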
